A study of Caenorhabditis elegans with 6 samples.

Results

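The genes described are those of the HIF-1 pathway of *Caenorhabditis elegans*, the system by which animal cells answer to low oxygen, with reporters of its activity. They were taken by name, as 7 of the 46739 genes of the count table, namely *hif-1*, *egl-9*, *vhl-1*, *rhy-1*, *phy-2*, *fmo-2* and *nhr-57*. All 7 passed the filter on low counts and were among the 15003 genes tested. RNA was sequenced from wild-type Bristol N2 worms kept at 20 °C, with 3 libraries labelled Y37A1B.5 RNAi and 3 libraries of the L4440 control. The worms were raised on *E. coli* OP50 to young adulthood and then moved for 5 days to RNAi bacteria (*E. coli* HT115 in the study's methods). For the first group these bacteria carried a plasmid against *Y37A1B.5*, the worm relative of human selenium-binding protein 1, and for the control the empty L4440 vector. Each library came from a lysate of many pooled whole worms, and the study describes its replicates as independent experiments.

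HIF-1 is a transcription factor that binds DNA together with a partner, AHA-1. While oxygen is plentiful, the enzyme EGL-9 uses it to hydroxylate a proline of HIF-1, the VHL-1 protein recognizes the modified protein, and HIF-1 is degraded. Low oxygen stops the hydroxylation, HIF-1 accumulates, and genes such as *nhr-57* and *phy-2* are transcribed. Hydrogen sulfide reaches the same switch in worms, since the cysteine synthase-like protein CYSL-1 binds EGL-9 and releases HIF-1, while RHY-1, a membrane protein of the endoplasmic reticulum, holds CYSL-1 back. *rhy-1* and *egl-9* are themselves switched on by HIF-1, so that both inhibitors form feedback loops. Because much of this control acts on the stability of the HIF-1 protein, mRNA levels show the pathway's outputs more directly than its switch.

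The libraries held between 34403223 and 46733527 counts on genes. *Y37A1B.5* itself (WBGene00012538) had 4833, 3519 and 4189 counts in the libraries labelled Y37A1B.5 RNAi, against 1126, 1295 and 792 counts in the control, so the count of the targeted gene goes against the label. Reads from the worms' mRNA and from the RNAi construct cannot be told apart in this count, and the libraries are called by their label throughout. Markers of intestine, muscle, neurons and germline were detected in every library. Of the embryo markers, *mex-5*, *skn-1* and *pie-1* gave most of the level, while *med-1*, *end-1* and *tbx-35* had at most 7 counts in any library. The 10 sperm markers together gave 3.28 to 4.97 CPM in the labelled libraries and 4.32 to 4.74 CPM in the control. Replicate 3 labelled Y37A1B.5 RNAi stood apart by a trend with transcript length. The median log2 difference from the control mean over the longest 10% of genes was −0.13, −0.14 and −0.48 in labelled replicates 1 to 3, and over the shortest 10% it was 0.037, 0.084 and 0.18. Values with this trend removed are given below for several genes.

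Of the 7 genes, *rhy-1* was higher and *fmo-2* lower in the libraries labelled Y37A1B.5 RNAi, and 5 did not pass the test, at an adjusted p under 0.05 in edgeR's quasi-likelihood test. Over all 15003 genes tested, 13.7% were called, 4.81% higher and 8.85% lower, and the count of 2 among 7 genes is to be read against this share. DESeq2 also called 2 of the 7, against 20.5% of all genes it tested. The median log2 fold change of the 7 genes was −0.057, against −0.028 over all genes tested. For 4 of the 7 genes (*hif-1*, *rhy-1*, *phy-2* and *nhr-57*) the groups did not overlap, 2 of them higher and 2 lower. They did not overlap for 40.5% of all genes tested, 18.4% higher and 22.1% lower. With 1 library left out, the number called among the 7 was 1 without control replicate 1, control replicate 2 or labelled replicate 1, each time *rhy-1*, and 3 without labelled replicate 3. A positive fold change means a higher level in the libraries labelled Y37A1B.5 RNAi, and levels are CPM, counts scaled to the library's total with edgeR's TMM factors. Since whole worms were sequenced, fewer cells of a type and less RNA per cell cannot be told apart for any gene below.

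**Figure D1:**
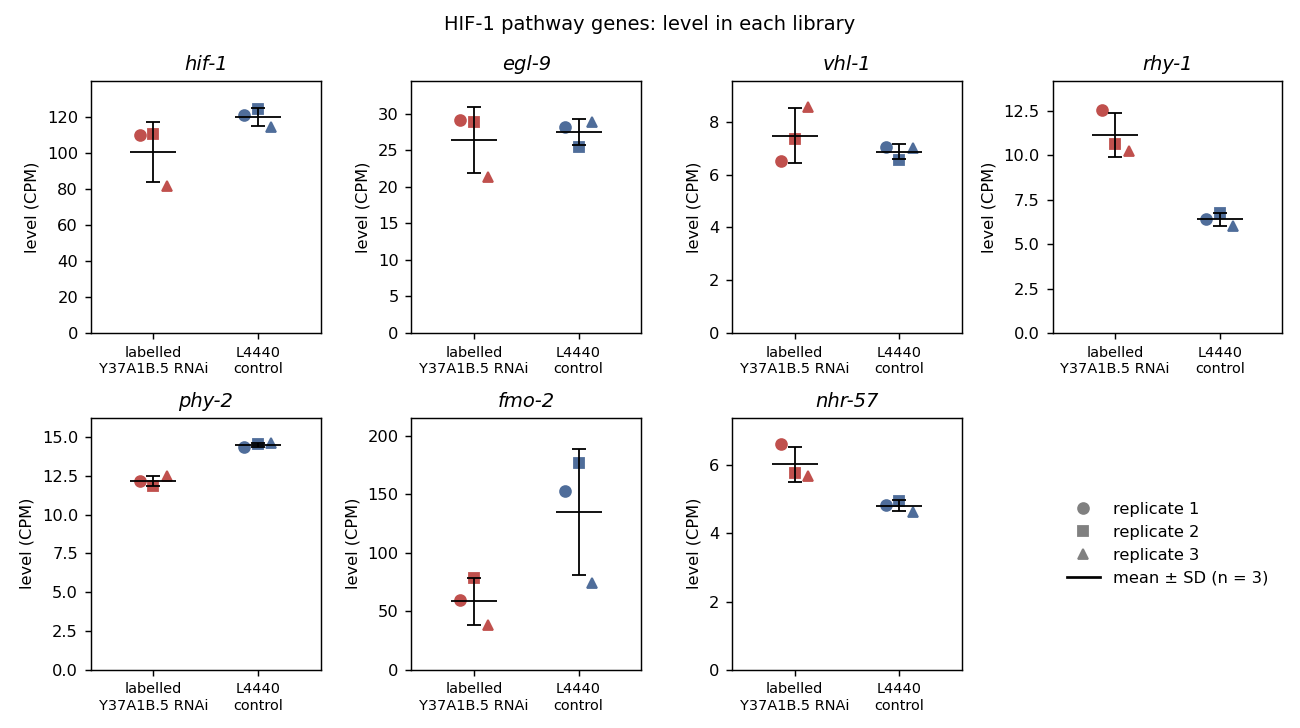
Level in CPM (vertical axes, starting at 0) of the 7 pathway genes in the 3 libraries labelled Y37A1B.5 RNAi (red, left) and the 3 L4440 control libraries (blue, right), with the mean and SD in black. The *rhy-1* libraries are parted by a wide gap, from 10.3 CPM upward in the labelled group and up to 6.74 CPM in the control, while for *fmo-2* control replicate 3, at 74.0 CPM, lies below labelled replicate 2, at 78.3 CPM.

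Compared per kilobase of exon, *fmo-2* and *hif-1* were the most abundant of the 7 transcripts and *nhr-57* the least. In the labelled libraries *fmo-2* had 35.4 ± 12.1 CPM per kb (SD, n = 3), and *hif-1*, whose libraries lay between 27.5 and 37.4 CPM per kb, overlapped with it. Then came *vhl-1* with 8.34 ± 1.16, *egl-9* with 7.78 ± 1.31, *phy-2* with 7.01 ± 0.198 and *rhy-1* with 6.68 ± 0.742 CPM per kb, each of which overlapped its neighbours in this order. *nhr-57*, with 3.87 ± 0.331 CPM per kb, lay below all of them. In the control the order began with *fmo-2* at 81.2 ± 32.5 and *hif-1* at 40.5 ± 1.74 CPM per kb, and these did not overlap. *phy-2* (8.35 ± 0.0756), *egl-9* (8.08 ± 0.528) and *vhl-1* (7.68 ± 0.311 CPM per kb) followed, with overlap between neighbours. At the low end *rhy-1*, with 3.83 ± 0.221 CPM per kb, lay above *nhr-57* with 3.08 ± 0.104. The change of place of *rhy-1*, which stood apart from the middle group in the control and within its range in the labelled libraries, is its higher level seen on this scale. The median over all genes tested was 7.97 CPM per kb.

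The transcription factor gene *hif-1* (WBGene00001851) lies on the plus strand of chromosome V from 20780407 to 20785260 in WBcel235, with 6 transcripts and 2960 bp of exons. Its level was 109.8, 110.6 and 81.4 CPM in replicates 1 to 3 labelled Y37A1B.5 RNAi, against 121, 124 and 114 CPM in the control. All labelled libraries lay below all control libraries, labelled replicate 3 by far the most. The log2 fold change was −0.25 (standard error 0.11, 95% interval −0.50 to −0.007) and did not pass the test (edgeR adjusted p = 0.141). Without labelled replicate 3 it was −0.11, and with the trend of transcript length taken out it was −0.07. With no filter on low counts, *hif-1* was called lower at an edgeR adjusted p of 0.0495 (0.0495 to 0.553 over its alternatives). Its log2 fold change was then smaller, −0.24, and its standard error was 0.086. Standard errors fell in that setting for *fmo-2* as well, from 0.31 to 0.10.

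*egl-9* (WBGene00001178, chromosome V, plus strand, 10468517 to 10476915, 3396 bp of exons), the oxygen-dependent prolyl hydroxylase that marks HIF-1 for destruction, had 29.1, 28.8 and 21.3 CPM in the labelled libraries. The control libraries had 28.1, 25.4 and 28.8 CPM. Labelled replicates 1 and 2 lay within or just above the control range and only labelled replicate 3 lay below it. The log2 fold change of −0.057 (standard error 0.12, 95% interval −0.32 to 0.21) did not pass the test (edgeR adjusted p = 0.768). Its direction turned to 0.084 without labelled replicate 3 and to 0.16 with the length trend removed, and it passed the test in neither. The interval leaves room for a fall to 0.802 times or a rise to 1.15 times the control level.

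*vhl-1* (WBGene00006922, chromosome X, plus strand, 11307356 to 11308518, 895 bp of exons) encodes the worm form of the von Hippel-Lindau tumor suppressor, the part of a ubiquitin ligase that recognizes hydroxylated HIF-1. Its level was 6.50, 7.33 and 8.56 CPM in the labelled libraries and 7.06, 6.55 and 6.999 CPM in the control. The groups overlapped, and labelled replicate 3 had the highest value. The log2 fold change was 0.12 (standard error 0.12, 95% interval −0.14 to 0.39, edgeR adjusted p = 0.492). Without labelled replicate 3 it was 0.021, and with the length trend removed it was 0.13.

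The other parts of the degradation machinery did not pass the test either. Of 7 genes for the HIF-1 partner, the VHL-1 ligase and proteins that bind EGL-9, edgeR called 0, against 13.7% of all genes tested. DESeq2 also called 0, against 20.5%. At an unadjusted p under 0.05 in edgeR, 2 were higher and 1 lower, against 33.1% of all genes tested in either direction. The groups did not overlap for 3 of the 7, against 40.5% of all genes tested, and the median log2 fold change was −0.029. *aha-1*, which encodes the partner of HIF-1 on DNA, had 25.97 ± 1.85 CPM in the labelled libraries and 26.3 ± 1.01 CPM in the control (SD, n = 3 each). *cysl-1*, the sensor that ties hydrogen sulfide to EGL-9, had 8.54, 8.90 and 9.43 CPM in the labelled libraries, against 8.66, 10.4 and 8.68 CPM in the control. The groups of *cysl-1* overlapped, with a log2 fold change of −0.045 (95% interval −0.28 to 0.19, edgeR adjusted p = 0.797) whose sign turned without control replicate 2 or labelled replicate 1. *swan-1*, whose product binds EGL-9 and lowers HIF-1 activity, had 65.9 ± 4.94 CPM in the labelled libraries and 75.4 ± 2.05 CPM in the control (SD, n = 3 each). Its log2 fold change was −0.20 (edgeR adjusted p = 0.0953), and it was called lower without labelled replicate 3 (edgeR adjusted p = 0.0497, the lowest of a range up to 0.302).

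*rhy-1* (WBGene00012324, chromosome II, plus strand, 9161379 to 9163448, 1668 bp of exons) was the member with the clearest difference. The libraries labelled Y37A1B.5 RNAi held 425, 473 and 413 of its counts, or 12.6, 10.6 and 10.3 CPM, and the control libraries held 220, 244 and 218 counts, or 6.42, 6.74 and 6.01 CPM. Every labelled library lay above every control library by more than the whole spread within either group. Its level was 1.74 times that of the control (95% interval 1.47 to 2.06), or 0.80 on the log2 scale (edgeR adjusted p = 0.00179, standard error 0.11). An exact two-sided permutation test over the 6 libraries gave p = 0.1, the smallest that 3 libraries against 3 allow. *rhy-1* was called higher under all 14 alternatives, with log2 fold changes of 0.72 to 0.86. In the order of fold changes it stood at place 174 from the top of 15003 genes. Counting error was 4.6% to 6.77% of its count in a library, near the 5.78% by which control libraries varied and below the 11.1% of the labelled ones (coefficients of variation). The annotation places 82 bp of its exons opposite to those of a gene on the other strand, *W07A12.8*, and the counting used the strand of the reads.

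The genes with the most similar pattern over the 6 libraries were *thn-1*, a thaumatin-like gene, *acox-1.2*, an acyl-CoA oxidase gene, and *ctsa-4.2*. Likeness was measured as the root mean square difference in log2 CPM after centring each gene, among the 8872 genes that averaged 5 CPM or more, and was 0.0872, 0.0924 and 0.0931. Their log2 fold changes were 0.72, 0.68 and 0.74.

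Of the response genes *nhr-57*, *phy-2* and *fmo-2*, only *fmo-2* passed the test, and their fold changes differed in sign. *nhr-57* (WBGene00003647, chromosome V, plus strand, 4131889 to 4135102, 1559 bp of exons), a nuclear hormone receptor gene whose promoter is used in reporters of HIF-1, had 6.62, 5.78 and 5.69 CPM in the labelled libraries and 4.84, 4.95 and 4.63 CPM in the control. All labelled libraries lay above all control libraries. The log2 fold change of 0.32 (standard error 0.11, 95% interval 0.081 to 0.57) did not pass the test (edgeR adjusted p = 0.0729). It was called higher with the length trend removed (log2 fold change 0.37, edgeR adjusted p = 0.0351), and the adjusted p ran up to 0.176 over its alternatives. The counts behind it were 166 to 257 a library, with a counting error of 6.24% to 7.76%. Of its exons 16 bp are shared with *lgc-1* on the same strand, and reads there were left out of the counts.

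Set against *rhy-1* within each library, a comparison chosen after the values were seen and free of any library scaling, *nhr-57* had 527, 543 and 554 counts per 1000 *rhy-1* counts in the labelled libraries. In the control it had 755, 734 and 771, and the groups did not overlap (exact two-sided permutation p = 0.1, the smallest that 3 libraries against 3 allow). The 95% intervals of the log2 fold changes, 0.56 to 1.04 for *rhy-1* and 0.081 to 0.57 for *nhr-57*, overlap. Against *hif-1*, *rhy-1* had 114, 96.2 and 126 counts per 1000 *hif-1* counts in the labelled libraries, against 53.0, 54.3 and 52.6 in the control. The labelled libraries lay above the control libraries in this ratio as well, and further apart from one another. This ratio is not free of the trend with transcript length, as *hif-1* has 2960 bp of exons and *rhy-1* 1668 bp. With that trend removed the log2 fold change was −0.07 for *hif-1* and 0.86 for *rhy-1*.

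**Figure D2:**
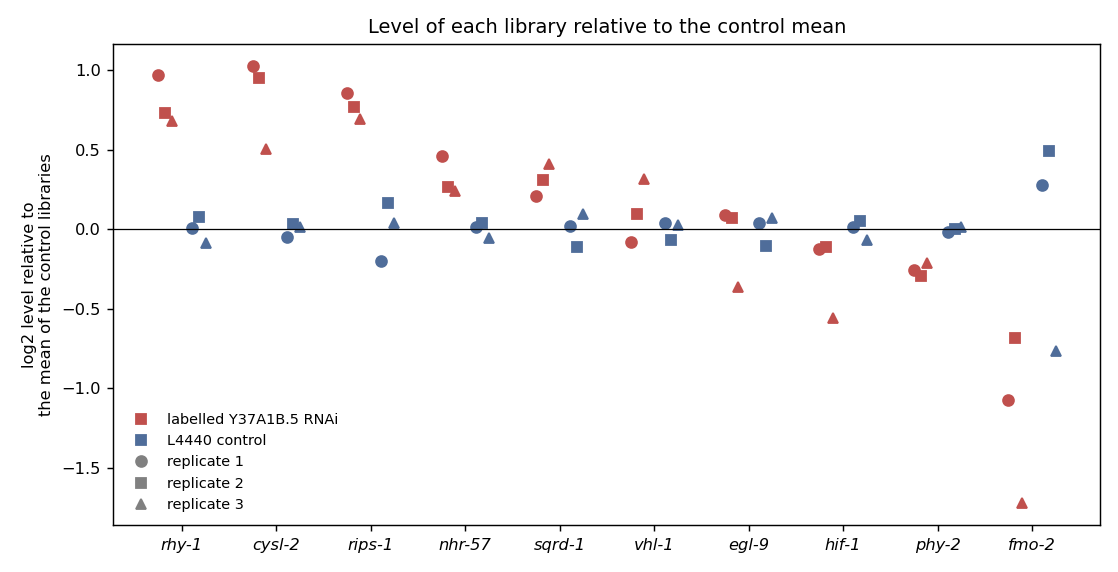
Level of each library relative to the mean of the 3 control libraries (log2 scale, vertical axis) for the pathway genes and 3 genes of the hydrogen sulfide response, with libraries labelled Y37A1B.5 RNAi in red on the left of each pair and control libraries in blue. The labelled libraries of *rhy-1*, *cysl-2* and *rips-1* lie 0.51 to 1.03 above the control mean. Replicate 3 (triangles) is the lowest labelled library of *rhy-1*, *cysl-2*, *rips-1*, *nhr-57*, *hif-1*, *egl-9* and *fmo-2*. It is the highest labelled library of *sqrd-1*, *vhl-1* and *phy-2*.

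*phy-2* (WBGene00004025, chromosome IV, minus strand, 12211097 to 12215987, 1736 bp of exons) encodes an alpha subunit of the collagen prolyl 4-hydroxylase, which stabilizes the collagens of the cuticle and, like EGL-9, consumes oxygen. Low oxygen raises *phy-2* through HIF-1. Its level was 12.1, 11.8 and 12.5 CPM in the labelled libraries, against 14.4, 14.5 and 14.6 CPM in the control. The groups did not overlap, and its spread within groups was at percentile 1.29 of all genes tested. The log2 fold change was −0.25 (standard error 0.080, 95% interval −0.43 to −0.075) and did not pass the test (edgeR adjusted p = 0.0609). Without labelled replicate 3 it was called lower (log2 fold change −0.27, edgeR adjusted p = 0.0478), in a range of 0.0478 to 0.216 over the alternatives.

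Of 4 genes tested from the family of *phy-2* and its partner subunit, *phy-2* among them, *dpy-18* and *pdi-2* were called lower and 0 higher. The median log2 fold change of the 4 was −0.29. Of all genes tested 8.85% were called lower and 4.81% higher. *phy-4* was not tested, with at most 0.12 CPM in any library. *dpy-18*, the other main alpha subunit, had 42.7, 45.1 and 40.0 CPM in the labelled libraries and 51.9, 57.5 and 51.9 CPM in the control, with a log2 difference of −0.34 (edgeR adjusted p = 0.0184, standard error 0.075). *pdi-2*, the protein disulfide isomerase that serves as the beta subunit, had 573, 660 and 632 CPM in the labelled libraries and 775, 819 and 744 CPM in the control, with a log2 difference of −0.33 (edgeR adjusted p = 0.0358, standard error 0.088). Neither gene's groups overlapped, but with 1 library left out *dpy-18* lost its call without control replicate 1 (edgeR adjusted p = 0.0561), control replicate 2 (0.092) or labelled replicate 1 (0.0521). *pdi-2* kept its call only without labelled replicate 3, and its adjusted p reached 0.162 without control replicate 2. The proportion of *phy-2* to *dpy-18* overlapped between the groups, with 285, 262 and 313 counts per 1000 *dpy-18* counts in the labelled libraries, against 276, 253 and 282 in the control.

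The hypodermis makes the cuticle. Besides the targeted gene, all 9 hypodermal markers had a negative log2 fold change (median −0.46, against −0.028 over all genes tested). Only 1 of them, *nhr-25*, was called lower by edgeR, against 8.85% of all genes tested. The summed level of the 9 markers was 180 to 232 CPM in the labelled libraries and 239 to 250 CPM in the control. The lowest sum was that of labelled replicate 3, the library with the length trend. Most of the sum was *lin-26*, with 141, 133 and 98.6 CPM in labelled replicates 1 to 3 and 141, 137 and 146 CPM in the control. *bli-1*, *wrt-2* and *grd-10* had at most 3.54 CPM in any library. None of the markers was at 0 in every library. The part of these markers in the counts of *phy-2*, *dpy-18* and *pdi-2* was not tested.

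*fmo-2* (WBGene00001477, chromosome IV, plus strand, 10682524 to 10684367, 1659 bp of exons) encodes a flavin-containing monooxygenase, an enzyme that oxygenates sulfur and nitrogen compounds and is needed in worms for the long life of *vhl-1* mutants. It is a target of HIF-1 and also of the transcription factors HLH-30 and NHR-49. The libraries labelled Y37A1B.5 RNAi held 2027, 3483 and 1537 of its counts, or 59.9, 78.3 and 38.2 CPM. The control libraries held 5239, 6410 and 2684 counts, or 153, 177 and 74.0 CPM. Control replicate 3 had less than labelled replicate 2, so the groups overlapped, and in both groups replicate 2 was highest and replicate 3 lowest. The level was 0.437 times that of the control (95% interval 0.273 to 0.700), or −1.19 on the log2 scale (edgeR adjusted p = 0.0307, standard error 0.31). An exact two-sided permutation test over the 6 libraries, which does not use the replicate numbers, gave p = 0.2. Each labelled library lay below the control library of the same number. With the replicate number as a block the log2 fold change was −1.16 (edgeR adjusted p = 0.000373, standard error 0.088), although the labels name no shared batch.

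In the order of fold changes *fmo-2* stood at place 37 from the bottom of 15003 genes, and its spread within groups was greater than that of 98.5% of them. Its standard deviation within groups was 0.604 on the log2 scale, against a median of 0.145 over all genes. Counting error was 1.25% to 2.55% of its count in a library. The fold change kept its sign under all 14 alternatives, between −1.49 and −0.95, but the call was lost without control replicate 1 (edgeR adjusted p = 0.0934), without control replicate 2 (0.122) and without labelled replicate 1 (0.0631). The most similar patterns were those of *tatn-1*, a tyrosine aminotransferase gene, *col-74*, a collagen gene, and *lec-2*, a galectin gene, at root mean square differences of 0.271, 0.281 and 0.293. These are wider than those around *rhy-1*, and *col-74* was itself not called (edgeR adjusted p = 0.124).

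Of the 5 flavin-containing monooxygenase genes 1 was called higher and 1, *fmo-2*, lower, against 4.81% and 8.85% of all genes tested. *fmo-2* made up 66.5%, 73.0% and 52.0% of the summed level per kilobase of the 5 genes in the labelled libraries, against 81.8%, 83.8% and 69.5% in the control. *fmo-3* was called higher, with 5.498, 5.55 and 7.47 CPM in the labelled libraries and 3.79, 3.23 and 5.01 CPM in the control. This was 0.62 on the log2 scale (edgeR adjusted p = 0.0456, standard error 0.18), and with 1 library left out it kept its call only without control replicate 3, the adjusted p reaching 0.165 without control replicate 2. *fmo-5* had 9.90, 9.76 and 10.75 CPM in the labelled libraries, against 12.8, 12.6 and 11.9 CPM in the control, and did not pass the test (log2 fold change −0.29, edgeR adjusted p = 0.0523). It was called lower without labelled replicate 3 (0.0331), the lowest of adjusted p-values that reached 0.179. *fmo-1* and *fmo-4* did not pass it either, at −0.39 and −0.17.

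Among the regulators of *fmo-2* besides HIF-1, *hlh-30*, the worm form of the autophagy and lysosome regulator TFEB, had 58.2, 60.3 and 54.9 CPM in the labelled libraries and 75.5, 79.1 and 66.4 CPM in the control. It was called lower (−0.35 on the log2 scale, edgeR adjusted p = 0.0202, standard error 0.080). With the length trend removed it was −0.14 and not called (edgeR adjusted p = 0.208), and the call was also lost without control replicate 1 (0.0885), control replicate 2 (0.0976) or labelled replicate 1 (0.0535). *nhr-49*, a nuclear receptor that governs fat burning, had 151 ± 2.06 CPM in the labelled libraries and 153 ± 5.41 CPM in the control (SD, n = 3 each). Its log2 fold change of −0.023 (95% interval −0.17 to 0.13) turned to 0.088 with the length trend removed and passed the test in neither. The coactivator gene *mdt-15*, the last of the 3 regulators listed, had 179 ± 19.4 CPM in the labelled libraries and 203 ± 5.93 CPM in the control. Its groups did not overlap, and its log2 fold change of −0.18 did not pass the test (edgeR adjusted p = 0.173).

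Other genes known to answer to HIF-1 or to hydrogen sulfide were called in both directions. Of 15 such genes 4 were called higher, 1 lower and 10 not called, against 4.81% higher and 8.85% lower of all genes tested. The median log2 fold change was 0.14. Genes that HIF-1 induces and genes that it represses are both on this list, so the median gives no single direction of response. The genes called higher were *cysl-2*, *rips-1*, *ftn-1* and *ftn-2*, and the lower one was *dct-1*. HIF-1 induces the first of these and represses the ferritins *ftn-1* and *ftn-2*. The list was written with earlier results of these data known, so its count against the share of all genes is not a test. Of the genes called, *ftn-2* is named after its values were seen.

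*cysl-2*, a cysteine synthase-like gene that is strongly induced by hydrogen sulfide and by loss of *egl-9*, had 20.0, 19.0 and 13.9 CPM in the labelled libraries, against 9.42, 10.005 and 9.86 CPM in the control. *rips-1*, named for its link with *rhy-1* in the response to sulfide, had 6.62, 6.21 and 5.88 CPM in the labelled libraries, against 3.15, 4.06 and 3.72 CPM in the control. In both genes every labelled library lay above every control library. On the log2 scale *rips-1* was higher by 0.77 (edgeR adjusted p = 0.00375, standard error 0.12) and *cysl-2* by 0.85 (edgeR adjusted p = 0.00319, standard error 0.13), and both genes were called higher under all 14 alternatives. Per 1000 *rhy-1* counts, *cysl-2* had 1588, 1782 and 1354 counts in the labelled libraries and 1468, 1484 and 1642 in the control. *rips-1* had 527, 584 and 574 in the labelled libraries and 491, 602 and 619 in the control. These ratios, too, were chosen after the values were seen. They overlapped between the groups, with means of 1.03 and 0.98 times the control. Ratios near 1 follow from the like log2 fold changes of *cysl-2*, *rips-1* and *rhy-1*. *ftn-1*, with a log2 fold change of 0.77, was not set against *rhy-1*. The ratio of *nhr-57* to *rhy-1* was 0.72 times the control, and the difference between the ratios was not tested.

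**Figure D3:**
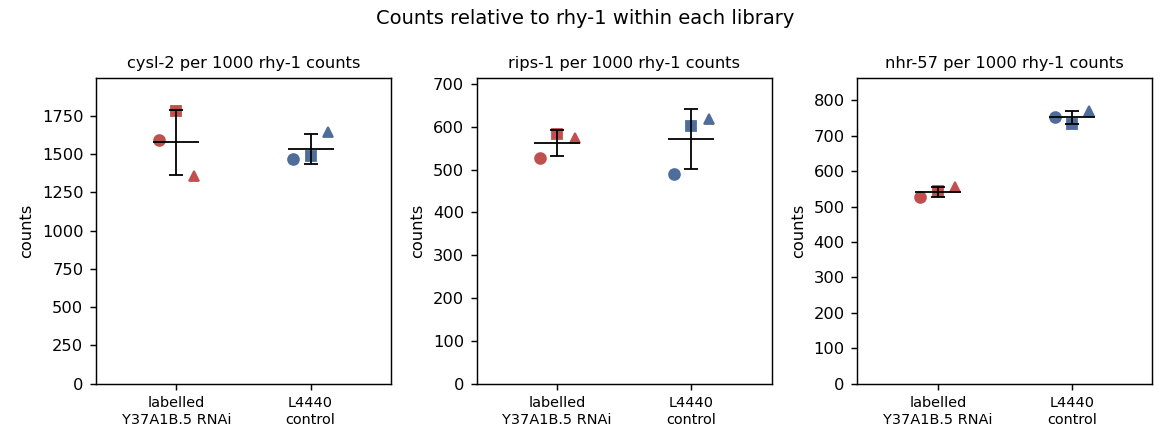
Counts of *cysl-2*, *rips-1* and *nhr-57* per 1000 *rhy-1* counts of the same library (vertical axes, starting at 0), with the 3 libraries labelled Y37A1B.5 RNAi in red on the left, the 3 control libraries in blue on the right, and the mean and SD in black. Symbols mark the replicate numbers (circle 1, square 2, triangle 3), and the groups overlap for *cysl-2* and *rips-1* but not for *nhr-57*. The genes were chosen for this comparison after their values were seen.

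*sqrd-1*, the mitochondrial sulfide:quinone oxidoreductase that begins the oxidation of hydrogen sulfide, had 7.51, 8.05 and 8.64 CPM in the labelled libraries and 6.56, 5.997 and 6.92 CPM in the control. The groups did not overlap, but the log2 fold change of 0.31 (95% interval 0.082 to 0.55) did not pass the test (edgeR adjusted p = 0.0706), except with the length trend removed (0.0322). *ethe-1*, which acts in a later step of the same oxidation, was at 0.14 on the log2 scale and did not pass it (edgeR adjusted p = 0.365).

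The ferritin genes store iron, and HIF-1 is known to repress them in worms when iron is scarce. *ftn-1* had 8.78, 10.4 and 12.6 CPM in the labelled libraries, against 6.18, 5.53 and 6.999 CPM in the control, with a log2 difference of 0.77 (edgeR adjusted p = 0.00861, standard error 0.14), and was called higher under all 14 alternatives. *ftn-2* had 118, 122 and 116 CPM in the labelled libraries, against 94.8, 99.3 and 95.6 CPM in the control, a log2 fold change of 0.30 (edgeR adjusted p = 0.0153) that lost its call without control replicate 1 (0.0898), control replicate 2 (0.0571) or labelled replicate 2 (0.0553). The iron importer gene *smf-3*, which HIF-1 induces, had at most 2.07 CPM in any library and did not pass the test. *dct-1*, a mitochondrial gene whose mammalian relative BNIP3 is a HIF-1 target, had 45.0, 47.1 and 45.8 CPM in the labelled libraries and 65.2, 61.1 and 53.8 CPM in the control. It was called lower (−0.39 on the log2 scale, edgeR adjusted p = 0.0133, standard error 0.080), but not without control replicate 1 (0.0707) or control replicate 2 (0.0593).

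**Figure D4:**
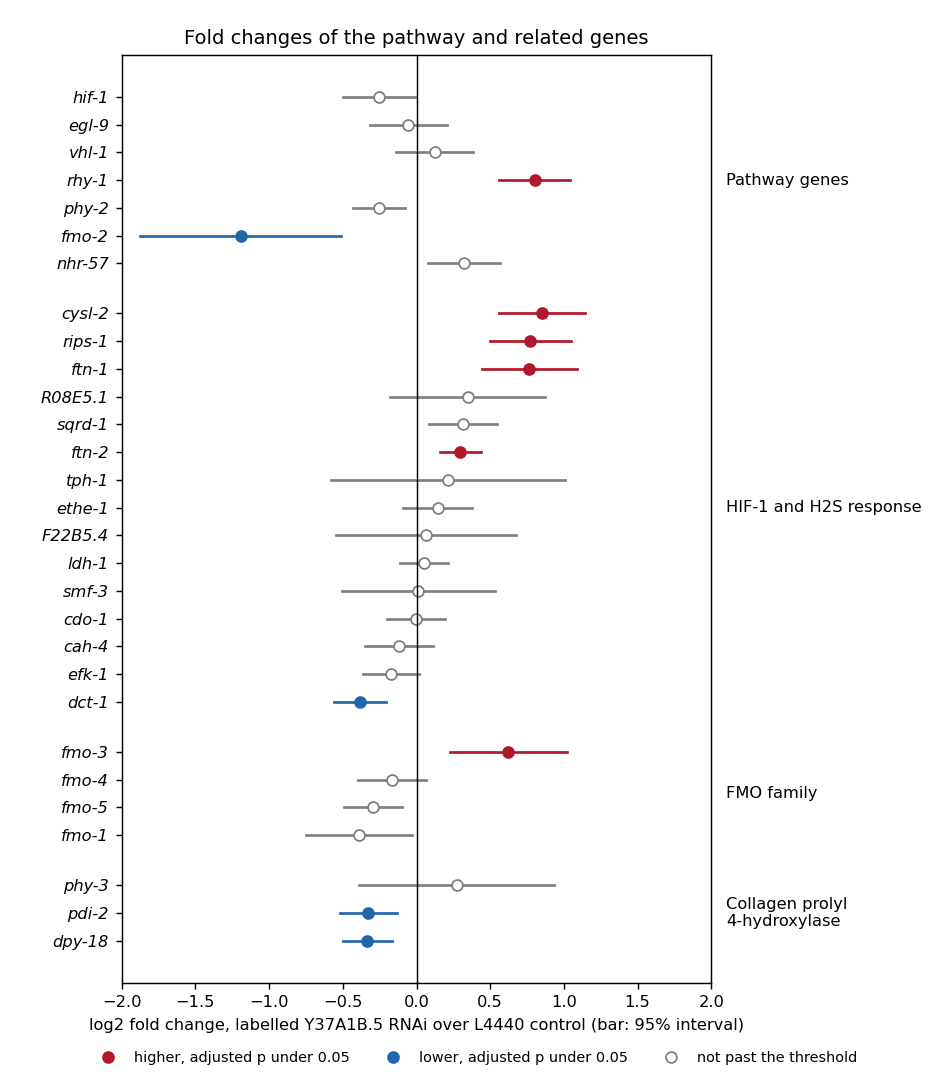
Log2 fold change of the libraries labelled Y37A1B.5 RNAi over the control (horizontal axis) with its 95% interval from edgeR for the 7 pathway genes, 15 genes that answer to HIF-1 or sulfide, and relatives of *fmo-2* and *phy-2*. Filled points passed an adjusted p of 0.05 (red higher, blue lower) and open points did not, and the interval of *fmo-2*, from −1.87 to −0.51, is the widest among the 7 pathway genes.

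In many animals HIF-1 raises glycolysis, and of 18 glycolytic genes tested edgeR called 0 (2 at an unadjusted p under 0.05 and 2 with DESeq2), with a median log2 fold change of 0.11. Of all genes tested, edgeR called 13.7%, 33.1% had an unadjusted p under 0.05, and DESeq2 called 20.5%. The largest values were those of *ipgm-1* at 0.23 and *tpi-1* at 0.22, both of which were called higher with DESeq2 (adjusted p of 0.0154 and 0.0118). Without labelled replicate 3 the number called was 9, where 2811 of all 15203 genes tested were called, and with the length trend removed it was 5, where 2907 of 14919 were called. In the fit as reported 2050 of 15003 were called, so calls over all genes were also more numerous in both settings. The share called rose more among the glycolytic genes than over all genes in both, and the reason was not tested. The *gpd* genes of this list are near-identical in pairs and can lose reads to the rule on unique mapping, so their values are uncertain. The genes of the separate oxygen sense of neurons, which relies on soluble guanylate cyclases and not on HIF-1, were counted at low levels, and 6 of 8 were tested. *gcy-36* was called lower, with 0.621, 0.764 and 0.869 CPM in the labelled libraries and 1.28, 1.88 and 1.27 CPM in the control (−0.96 on the log2 scale, edgeR adjusted p = 0.0220, standard error 0.23). The call was lost without control replicate 2 (edgeR adjusted p = 0.092), labelled replicate 1 (0.0626) or labelled replicate 2 (0.0532), and *gcy-31*, at −0.61, did not pass the test (edgeR adjusted p = 0.106). Of 10 neuronal markers 9 had a negative log2 fold change and 2 were called lower (median −0.23), against 8.85% of all genes tested, with a summed level of 250 to 280 CPM in the labelled libraries and 273 to 299 CPM in the control. Their part in the lower *gcy-36* count was not tested.

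**Figure D5:**
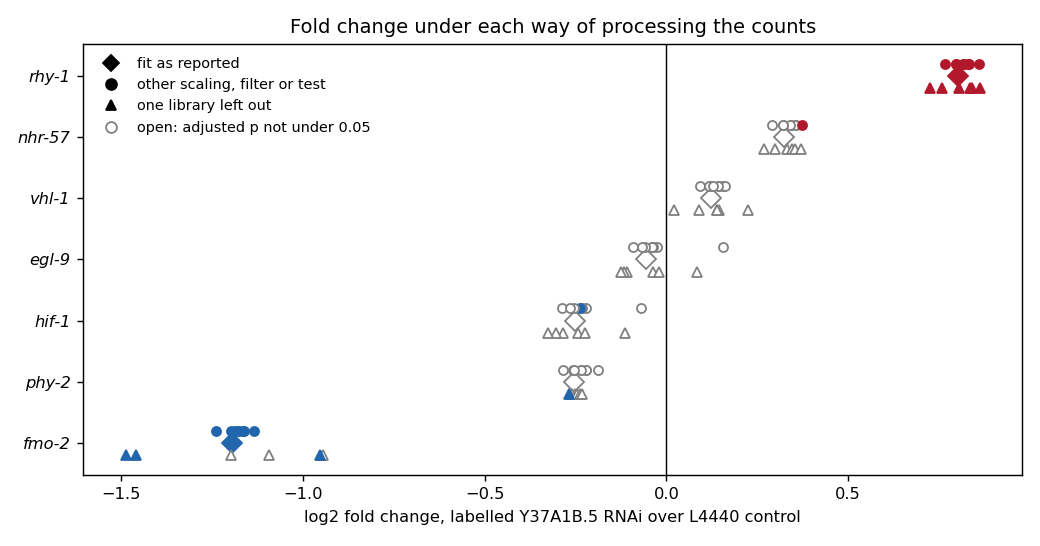
Log2 fold change of each pathway gene (horizontal axis, libraries labelled Y37A1B.5 RNAi over the control) in the fit as reported (diamond), with another scaling, filter or test (circles, above) and with a library left out (triangles, below). Filled symbols passed an adjusted p of 0.05 (red higher, blue lower), which all those of *rhy-1* and 12 of the 15 of *fmo-2* did.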

How the data were processed

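The deposited values are raw counts per gene without normalization, 6 columns in all, and 0 other columns of per-sample values were present. As the study's methods state, the authors trimmed reads with the SGA assembler's preprocessing tool, aligned them to the WBcel235 genome by TopHat2 2.1.0, and had featureCounts 1.5.0 count strand-specific reads with a single position and a single gene, so that all other reads are missing. Here edgeR 4.0.16 under R 4.3.3 was applied to these counts (TMM factors, filterByExpr with a minimum count of 10 and a minimum total of 15, quasi-likelihood test, Benjamini-Hochberg adjustment over all genes tested, threshold 0.05). CPM, CPM per kb of merged exons, 95% intervals and the standard error (the fold change divided by the square root of F) were computed from the same fit. Symbols, positions and exon lengths came from Ensembl release 115 for WBcel235, which holds 46484 of the 46739 genes. The libraries held 34403223 to 46733527 counts, which makes counting error 1.25% to 7.76% of the counts of the 7 genes. These percentages cover counting error only. The fitting code was tested on simulated counts.

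The members, lists and rules were chosen with earlier results of these data known. Named were the 7 genes, in each list up to 4 genes past the threshold and up to 3 others, and the 3 genes most alike to each called member. Lists are described by counts and medians, with no list test. The alternatives were DESeq2 1.42.0, RLE and upper-quartile factors, reference genes (*pmp-3*, *cdc-42*, *tba-1*) as the scale, the replicate number as a block, a filter of 1 count in all, a filter of 10 counts per library, a loess trend (span 0.5) of log2 CPM on exon length taken out, and leaving out each library in turn. Besides hypodermis and neurons, the marker lists had medians of 0.068 (intestine), 0.071 (muscle), −0.0018 (germline), −0.24 (sperm) and −0.11 (embryo) on the log2 scale. The intestinal marker *opt-2* found no gene under that symbol.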

Additional observations from a re-analysis of the deposited data

How the results depend on the processing

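The log2 fold changes of *rhy-1*, *cysl-2*, *rips-1* and *ftn-1* kept their direction and their call under all 14 alternatives, and *vhl-1* stayed without a call under all of them. Leaving out a library in turn gave 0.72 to 0.86 for *rhy-1*, −1.49 to −0.95 for *fmo-2*, 0.27 to 0.37 for *nhr-57*, −0.27 to −0.23 for *phy-2*, −0.33 to −0.11 for *hif-1*, 0.021 to 0.23 for *vhl-1* and −0.12 to 0.084 for *egl-9*. With the length trend removed, *egl-9* turned to 0.16, *nhr-49* to 0.088, and *nhr-57* was called at 0.37. When libraries were left out *cysl-1* ranged from −0.088 to 0.048 and *nhr-49* from −0.044 to 0.0068. The sign of *cysl-1* turned without control replicate 2 (0.048) and without labelled replicate 1 (0.0028). That of *nhr-49* turned with DESeq2 (0.0091), with the reference gene scaling (0.0094) and without control replicate 1 (0.0068). With no filter on low counts *hif-1* was called at −0.24 with a smaller standard error (0.086, against 0.11), and 3298 genes were called in all, of 25681 tested. Over all genes the count of 2050 ranged from 727 to 2811 when a library was left out (862 without control replicate 1, 727 without control replicate 2 and 1346 without labelled replicate 1), and the causes were not tested. The share of higher calls was 35.2%, against 48.2% with DESeq2, 23.8% with upper-quartile factors and 59.8% with the length trend removed. The median over all genes moved by less than 0.1 on the log2 scale under every scaling tried.

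Replicate numbers were not taken as pairs, since the labels name no shared batch. Same-numbered libraries deviated from their group means with correlations of 0.135, 0.0626 and 0.121, and every library correlated best with its own number. With the replicate number as a block, 2917 genes were called, and *fmo-2* stood at −1.16 with a standard error of 0.088 (edgeR adjusted p = 0.000373) and *rhy-1* at 0.80 (0.00174). The block changed the call of none of the 7 genes, and *fmo-5* was called lower with it (0.0479). Depth limits *nhr-57*, *vhl-1* and *rhy-1* most, whose counting error reaches 7.76%, 6.74% and 6.77% of a count.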
